A study of Triticum aestivum with 42 samples.

Results

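The crown of the winter wheat Harnesk was compared between 9 and 3 weeks after germination, as 2 arrays against 2, with the 2 arrays of 5 weeks shown between them. These 6 arrays are all the Harnesk crown arrays among the 42 of the series. They were chosen by variety, tissue and week and not by a measured value, although earlier results of these data were known. The study took wheats with and without a need for vernalisation slowly from warm, long and bright days to cold, short and dim ones. The 6 leaf arrays of Harnesk entered the same model, so that 12 arrays shared 1 estimate of the spread. Plants of 3 weeks came from day and night temperatures of 16°C and 14°C under 14 h of light (photosynthetically active radiation, PAR, of 280, with no unit given). By 5 weeks these settings were 14°C, 10°C and 12 h (PAR 185), and by 9 weeks 8°C, 4°C and 9 h (PAR 95). Temperature, light, day-length and age therefore moved together in every comparison below, and their parts cannot be told apart. Each array carries RNA pooled from several plants, and the arrays of a week are labelled as biological replicates. The crown sample held the shoot apex, some of the stem below it and the bases of immature leaves, so that fewer cells of a type and less RNA per cell cannot be told apart.

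Winter wheat needs a long spell of cold before it can flower, and the shoot apex inside the crown is where leaf production gives way to the making of a spike. The crown must also survive the winter, since new leaves and tillers grow from it. In wheat the transition runs through TaVRN1, a MADS-box transcription factor that promotes flowering and accumulates during vernalisation, while clock and day-length genes, gibberellin and Polycomb-type chromatin regulators act beside it in Arabidopsis.

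Values are given as deposited, unlogged, as the ratio to the median of the probe-set. Levels can therefore be compared between arrays but not between probe-sets, and a probe-set may read several of the homoeologous copies of a wheat gene. Some markers bore out the labelled tissue, but not every marker did. At 3 weeks one histone probe-set of wcH2B-8 stood at 8.12 in crown and 0.081 in leaf. The Calvin-cycle enzyme phosphoribulokinase, PRK, read 0.01 in crown, the lowest deposited value, and 3.67 in leaf. Both were picked from lists of 16 dividing-cell and 48 leaf-marker probe-sets. Some other leaf markers hardly differed, such as one rbcl probe-set at 1.08 in crown and 0.969 in leaf. The leaf list was also partly drawn from earlier results on these arrays, so its support for the label is weak. Of the 9 names on the list of dividing-cell markers 4 had an annotated probe-set, all of them histones. Replicate crown arrays had rank correlations of 0.815 to 0.847. In crown the interquartile range of log2 values was 0.445 and 0.505 at 3 weeks and 0.426 and 0.459 at 5 weeks. It was 0.351 and 0.338 at 9 weeks, so the 9-week crown arrays were the narrowest. The leaf arrays were wider, at 0.536 to 0.855. Quantile normalisation took leaf and crown arrays together, so it also set the crown arrays to a spread shared with leaf. It is therefore no test of the narrowing within crown, and the part of that narrowing in the results was not tested.

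From 3 to 9 weeks 1383 of 61179 probe-sets changed at least 2-fold at an adjusted p below 0.05 (2.26%, limma). Of these 546 rose (0.892%) and 837 fell (1.37%), and 93 of the rises but 74 of the falls reached 5-fold. At any fold 2184 rose (3.57%) and 4544 fell (7.43%). Most of the movement came late. By 5 weeks 164 probe-sets had changed at least 2-fold against 3 weeks (0.268%), 50 upwards (0.0817%) and 114 downwards (0.186%), whereas 971 changed between 5 and 9 weeks (1.59%), 499 upwards (0.816%) and 472 downwards (0.772%). Among the 546 that rose from 3 to 9 weeks, 44 were already called at 5 weeks and 371 were called from 5 to 9 weeks, with a median step of 0.24 log2 before week 5 and of 1.26 after it. The 837 that fell had median steps of -0.30 and -0.98 log2, and 66 were called by 5 weeks. The 3 comparisons share arrays, so these steps are not independent of each other. Adjustment was made within each comparison, so a step of the same size and standard error can pass in one and not another. The later interval is also the longer. Leaving out the second 3-week array reduced the falls called by 5 weeks from 114 to 68, and quantile normalisation raised the count from 3 to 9 weeks to 2212.

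**Figure D1:**
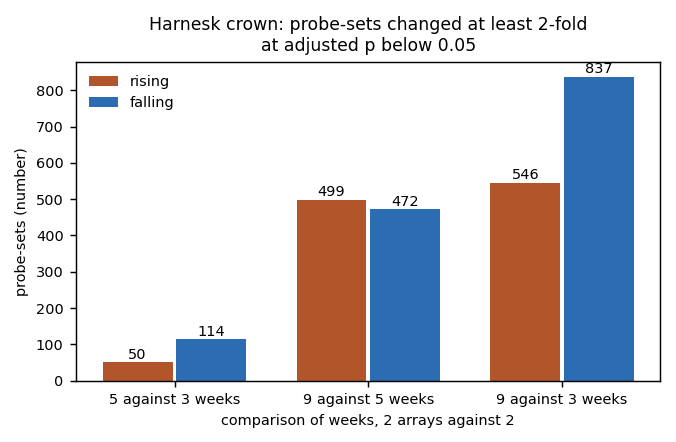
Number of probe-sets in Harnesk crown that rose or fell at least 2-fold at an adjusted p below 0.05, for each pair of weeks (2 arrays against 2). The bars for 5 against 3 weeks stand at 50 and 114, those for 9 against 5 weeks at 499 and 472, and those for 9 against 3 weeks at 546 and 837.

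TaVRN1 rose on all 4 of its probe-sets, where 3.57% of all probe-sets rose at any fold, and no step was called before week 5. On the most responsive of them (a) the level was 0.135 and 0.127 at 3 weeks, 0.151 and 0.162 at 5 weeks and 1.445 and 1.605 at 9 weeks. The 9-week arrays lay far above the other 4, which were close together. In log2 its level moved between 3 and 9 weeks by 3.54 (standard error 0.17, adjusted p = 5.25e-08), of which 0.26 (adjusted p = 1) had come by 5 weeks and 3.28 (adjusted p = 1.58e-07) came after. The next probe-set (b) read 0.356 and 0.338 at 3 weeks, 0.461 and 0.353 at 5 weeks and 1.887 and 1.616 at 9 weeks, a change of 2.33 (standard error 0.24, adjusted p = 5.71e-05). Probe-set c read 0.265 and 0.274 at 3 weeks, 0.388 and 0.256 at 5 weeks and 1.115 and 0.904 at 9 weeks, a change of 1.90 (standard error 0.29, adjusted p = 0.00137), and its 5-week arrays lay on either side of the 3-week level. The last (d) changed by 1.22 (standard error 0.14, adjusted p = 0.000199). The 4 changes by 5 weeks, 0.26, 0.22, 0.23 and 0.21, were small and of 1 sign, with adjusted p = 1 for each, whereas all 4 rose from 5 to 9 weeks (2.61% of all probe-sets). Each of the 4 rises kept an adjusted p below 0.05 with any 1 of the 4 arrays left out.

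Of the 30 probe-sets for MADS-box transcription factors 6 rose (4 of them TaVRN1), 2 fell and 22 did not pass, with a median change of 0.07 log2 against 0.01 over all probe-sets. Without TaVRN1 that leaves 2 rises and 2 falls, and over all probe-sets 3.57% rose and 7.43% fell at any fold. The study places TaAGL42 next to a rice gene that promotes flowering. It adds that the wheat gene may have no part in phase transition and might act in cold acclimation instead. TaAGL42 stood at 0.258 and 0.258 at 3 weeks, 0.417 and 0.434 at 5 weeks and 0.658 and 0.688 at 9 weeks. The weeks did not overlap. Between 3 and 9 weeks it moved by 1.38 (standard error 0.14, adjusted p = 5.87e-05), with 0.72 (adjusted p = 0.0516) by 5 weeks and 0.66 (adjusted p = 0.0148) after. Both steps had a standard error of 0.14 and were adjusted within their own comparison, so passing does not make the later step the larger. TaAGL10, of the same subfamily as TaVRN1, read 0.759 and 0.819 at 3 weeks, 0.856 and 0.887 at 5 weeks and 1.255 and 1.149 at 9 weeks, a change of 0.61 (standard error 0.14, adjusted p = 0.0155). That call was lost whichever of the 4 arrays was left out (adjusted p 0.071 to 0.14). After quantile normalisation TaAGL10 changed by 0.89 (adjusted p = 0.0011). The probe-set shared by TaAGL14 and TaAGL15 went the other way, with 3.308 and 3.472 at 3 weeks, 3.042 and 3.279 at 5 weeks and 2.132 and 1.929 at 9 weeks. Its change of -0.74 (standard error 0.16, adjusted p = 0.0106) was also lost in every leave-out (adjusted p 0.052 to 0.11), and after quantile normalisation it was -0.41 (adjusted p = 0.082). One of a pair of probe-sets for TaAGL13 and TaAGL19 changed by -0.46 log2 (adjusted p = 0.045, and 0.071 to 0.35 with 1 array left out), and the other changed by -0.46 (adjusted p = 0.0505). After quantile normalisation the first changed by -0.19 (adjusted p = 0.35).

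TaAGL32 passed no test between 3 and 9 weeks, nor from 3 to 5 weeks, as no MADS-box probe-set did. Only its later fall passed. Its level was 2.746 and 2.855 at 3 weeks, 3.672 and 3.598 at 5 weeks and 2.153 and 2.121 at 9 weeks, highest on both 5-week arrays, and its change from 5 to 9 weeks was -0.77 (adjusted p = 0.00613). Of the relatives of the Arabidopsis floral integrator SOC1, TaAGL7 changed by 0.58 (standard error 0.21, adjusted p = 0.101), which became 0.89 (adjusted p = 0.0025) after quantile normalisation and then passed. The probe-set of TaAGL20, TaAGL21 and TaAGL38 changed by 0.14 (standard error 0.15, adjusted p = 0.664). For TaAGL36, which is TaVRT2, a relative of the Arabidopsis repressor SVP, the change was 0.24 (standard error 0.13, adjusted p = 0.267), with a 95% interval of -0.03 to 0.52. In leaf the same probe-sets changed by 1.94, 1.06 and 1.11 log2, and leaf minus crown was 1.35 (adjusted p = 0.00479), 0.92 (adjusted p = 0.00741) and 0.87 (adjusted p = 0.00321). The MADS-box probe-sets not yet named did not pass in crown and lay between that of TaAGL33 and TaAGL41 (-0.44 log2, adjusted p = 0.114) and one of the pair of TaAGL17 and TaAGL35 (0.29, adjusted p = 0.292). TaAGL27 changed by 0.20 and 0.11 log2 on its probe-sets.

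Genes named after Arabidopsis regulators of vernalisation fell or did not pass. Of 7 probe-sets 3 fell (7.43% of all probe-sets) and none rose (3.57%), and the median change was -0.45 log2. VIL2, a VIN3-like gene, whose Arabidopsis relatives work with the Polycomb complex, read 2.356 and 2.207 at 3 weeks, 2.081 and 2.46 at 5 weeks and 1.358 and 1.476 at 9 weeks on one probe-set. The 9-week arrays were the lowest 2, and the 5-week arrays lay around the 3-week level. Its change was -0.69 (standard error 0.14, adjusted p = 0.00867), and that of the other VIL2 probe-set -0.51 (standard error 0.15, adjusted p = 0.0522). VIL3 read 1.378 and 1.417 at 3 weeks, 1.357 and 1.367 at 5 weeks and 0.983 and 0.94 at 9 weeks, a change of -0.54 (standard error 0.15, adjusted p = 0.0402). The homologue of the Polycomb gene EMF2 read 1.573 and 1.687 at 3 weeks, 1.527 and 1.574 at 5 weeks and 1.15 and 1.235 at 9 weeks, a change of -0.45 (standard error 0.12, adjusted p = 0.0348). Both of these calls were lost in every leave-out (adjusted p 0.15 to 0.22 for VIL3 and 0.11 to 0.25 for EMF2), and that of VIL2 without either 3-week array or the first 9-week array (adjusted p 0.049 to 0.093 over the 4 arrays). After quantile normalisation VIL2 changed by -0.44 (adjusted p = 0.044), VIL3 by -0.54 (adjusted p = 0.016) and EMF2 by -0.25 (adjusted p = 0.18). VIL1 changed by -0.08 (standard error 0.17, adjusted p = 0.856), VIP4 by -0.33 (adjusted p = 0.405) and the homologue of Arabidopsis VRN1 by -0.20 (adjusted p = 0.557).

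Among 5 probe-sets for floral integrators and meristem identity 1 fell (7.43% of all probe-sets). This was TFL1, whose Arabidopsis relative keeps the shoot apex from turning into a flower. It read 2.806 and 2.737 at 3 weeks, 2.222 and 2.651 at 5 weeks and 1.546 and 1.599 at 9 weeks, so that the 9-week arrays lay below all 4 others. The change was -0.82 (standard error 0.15, adjusted p = 0.00486), with a step of -0.63 (adjusted p = 0.0285) after 5 weeks. Without the first 9-week array its adjusted p was 0.053. FT, the mobile flowering signal made in leaves, stood at 0.884 and 0.956 at 3 weeks, 0.833 and 0.919 at 5 weeks and 0.886 and 0.931 at 9 weeks and its change of -0.02 (standard error 0.15, adjusted p = 0.97) had a 95% interval of -0.35 to 0.31. For FD, the transcription factor that FT joins at the apex in Arabidopsis, the change was -0.12 (standard error 0.16, adjusted p = 0.743). PDF2 changed by -0.34 (adjusted p = 0.123) and FWA by -0.40 (adjusted p = 0.0537).

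The photoperiod genes showed changes at 5 weeks that a comparison of 9 with 3 weeks alone would miss. GI, a clock-regulated gene of day-length sensing, read 0.754 and 0.781 at 3 weeks, 0.246 and 0.269 at 5 weeks and 0.987 and 1.018 at 9 weeks. The 5-week arrays lay far below all others. The step was -1.58 (adjusted p = 3.62e-05) to 5 weeks and 1.96 (adjusted p = 8.56e-07) after it, and the change from 3 to 9 weeks, 0.39 (standard error 0.12, adjusted p = 0.0606), did not pass, although after quantile normalisation it was 0.59 (adjusted p = 0.0082). LHY, a morning component of the clock, moved the other way, with 0.6 and 0.624 at 3 weeks, 1.317 and 1.374 at 5 weeks and 0.667 and 0.752 at 9 weeks. Both 5-week arrays were the highest, with steps of 1.14 (adjusted p = 0.000775) and -0.93 (adjusted p = 0.00073). The second LHY probe-set, which the study lists for CCA1, behaved otherwise, with 0.974 and 1.071 at 3 weeks, 0.952 and 1.098 at 5 weeks and 0.535 and 0.503 at 9 weeks. It stayed level to 5 weeks and lay lower on both 9-week arrays, a change of -0.98 (standard error 0.13, adjusted p = 0.000514), or -1.54 (adjusted p = 1.7e-05) after quantile normalisation. Of 15 photoperiod probe-sets, then, 1 rose and 1 fell by 5 weeks (0.193% and 0.327% of all probe-sets), and 1 rose and 2 fell from 5 to 9 weeks (2.61% and 4.64%). The remaining 12, among them TOC1, CO, PHYA and ELF3, passed no test in crown, with changes from 3 to 9 weeks of 0.44 for one TOC1 probe-set, 0.09 for CO and 0.21 for PHYA. PHYC changed by -0.14, the probe-set of CRY1 and CRY2 by 0.08, ESD4 by 0.47 and the ELF3 pair by 0.28 and 0.26 log2. Quantile normalisation added 4 rises from 3 to 9 weeks to the list. Plants were harvested at the middle of the light period, which became shorter, so time since dawn moved with week and its part cannot be told apart.

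Of 4 probe-sets for gibberellin synthesis and response none passed in crown. Early steps of the pathway are those of ent-kaurene synthase, which read 0.816 and 0.678 at 3 weeks, 0.996 and 0.849 at 5 weeks and 0.74 and 0.953 at 9 weeks on one probe-set, and ent-kaurene oxidase, which read 0.685 and 0.79 at 3 weeks, 0.697 and 0.773 at 5 weeks and 0.897 and 0.713 at 9 weeks. Their weeks overlapped, and the changes were 0.17 (standard error 0.27, adjusted p = 0.778) and 0.12 (standard error 0.16, adjusted p = 0.723). In leaf they were 3.00 and 2.09 log2 (17% of all probe-sets rose in leaf at any fold), and leaf minus crown was 2.82 (adjusted p = 0.000251) and 1.97 (adjusted p = 6.37e-05). The second ent-kaurene synthase probe-set changed by 0.08 in crown and RGA1, named after an Arabidopsis repressor of gibberellin response, by 0.05 log2. A late step, the GA 20-oxidase copy GA20OX1-A, read 0.83 and 0.849 at 3 weeks, 0.694 and 0.782 at 5 weeks and 0.621 and 0.551 at 9 weeks, a change of -0.52 (standard error 0.14, adjusted p = 0.0349) that was lost in every leave-out (adjusted p 0.098 to 0.25) and became -0.97 (adjusted p = 0.0012) after quantile normalisation. The 3 other 20-oxidase probe-sets did not pass. None of 8 probe-sets for the autonomous pathway genes FCA, FVE and LD passed in any of the 3 comparisons, and their changes from 3 to 9 weeks ran from -0.31 to 0.39 log2, both on FCA. After quantile normalisation 1 of the 8 rose.

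**Figure D2:**
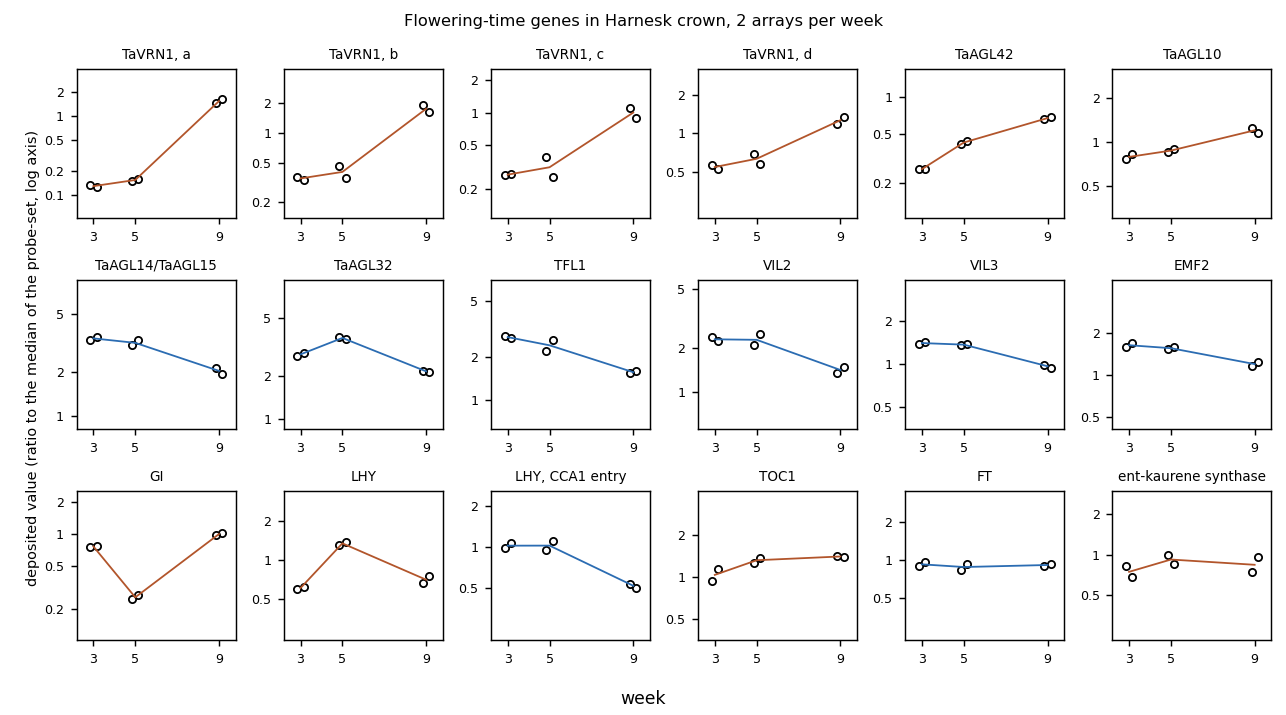
Deposited value (ratio, log axis) against week for 18 flowering-time probe-sets in Harnesk crown, with a circle for each of the 2 arrays of a week and a line through their geometric means, orange where the 9-week mean is above that of 3 weeks and blue where it is below. The 4 TaVRN1 probe-sets, a to d in the order of the text, stay near their 3-week level to week 5 and rise by week 9, while GI and LHY turn at 5 weeks.

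The cold-acclimation genes found by name, 5 probe-sets of 3 genes, gave a mixed picture. Of the 1273 annotated probe-sets 1073 carried only a LOC number without a synonym. Lists matched by name may therefore miss members. The dehydrin-type gene rab15 rose on all 3 of its probe-sets (3.57% of all probe-sets rose), and COR410, a dehydrin, and LEA1, a late embryogenesis abundant protein, did not pass. On one rab15 probe-set the level was 1.466 and 1.317 at 3 weeks, 1.501 and 2.065 at 5 weeks and 4.787 and 4.117 at 9 weeks, with the 9-week arrays well above the rest. Its change was 1.68 (standard error 0.17, adjusted p = 4.03e-05), with a step of 1.33 (adjusted p = 0.000377) after 5 weeks. Of a pair of probe-sets from another rab15 cluster the stronger had moved by 5 weeks, with 1.306 and 1.36 at 3 weeks, 2.978 and 2.058 at 5 weeks and 2.798 and 2.816 at 9 weeks. The 5-week arrays lay on either side of the 9-week ones. That probe-set changed by 1.07 (standard error 0.17, adjusted p = 0.00196) to 9 weeks, of which 0.89 (adjusted p = 0.0487) had come by 5 weeks. Its partner had changed by 0.87 (adjusted p = 0.19) at 5 weeks and changed by 0.95 (standard error 0.22, adjusted p = 0.0142) to 9 weeks, a call lost in every leave-out (adjusted p 0.078 to 0.11). COR410 changed by 0.10 (standard error 0.20, adjusted p = 0.845) and LEA1 by 0.14 (standard error 0.20, adjusted p = 0.759). No probe-set was annotated to a CBF or DREB gene. For the enzymes that break down fructan, the storage sugar of cereal stems, 1 of 4 probe-sets rose (3.57% of all probe-sets). This was one 6-FEH probe-set, at 0.42 log2 (adjusted p = 0.04, and 0.12 to 0.27 with 1 array left out), or 0.68 (adjusted p = 0.0044) after quantile normalisation. The other 6-FEH probe-sets did not pass, and 1-FEH changed by -0.39 (adjusted p = 0.0683).

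Some photosynthesis genes rose in crown from levels far below those of leaf. Of 36 probe-sets 7 rose (3.57% of all probe-sets) and none fell (7.43%), with a median change of 0.14 log2. petC, at 1.96% of its leaf level at 3 weeks, codes for the Rieske protein of the cytochrome b6f complex. It read 0.055 and 0.06 at 3 weeks, 0.071 and 0.084 at 5 weeks and 0.125 and 0.115 at 9 weeks, a change of 1.06 (standard error 0.13, adjusted p = 0.000208). OEE1, of the oxygen-evolving complex, read 0.169 and 0.161 at 3 weeks, 0.189 and 0.201 at 5 weeks and 0.313 and 0.337 at 9 weeks, a change of 0.98 (standard error 0.12, adjusted p = 0.000221). In both the weeks did not overlap, but the steps by 5 weeks, 0.43 (adjusted p = 0.413) and 0.24 (adjusted p = 1), did not pass and those after week 5, 0.64 (adjusted p = 0.00991) and 0.74 (adjusted p = 0.00251), did. In leaf the changes were -0.23 and -0.32 log2, and leaf minus crown was -1.29 (adjusted p = 0.000279) and -1.30 (adjusted p = 0.000165). The remaining 5 were FBP at 0.89, 1 of 28 rbcl probe-sets at 1.34, both OEE2 probe-sets at 0.53 and 0.52 log2, and PRK, which sat on the table's floor at 3 weeks and was at least 1.6-fold higher at 9 weeks (adjusted p = 0.00846). Calls for these 5 were lost in 3 or all of the 4 leave-outs, and after quantile normalisation petC changed by 0.36 (adjusted p = 0.059), OEE1 by 0.53 (adjusted p = 0.0085), the rbcl probe-set by 0.75 (adjusted p = 0.11), FBP by 0.05 (adjusted p = 0.9) and the OEE2 pair by -0.13 (adjusted p = 0.5) and -0.31 (adjusted p = 0.14), while PRK had an adjusted p of 0.11. Over the whole list 4 probe-sets rose and 4 fell under that normalisation. The chloroplast thioredoxin Trx-M, which is on no list and was picked out after its values were seen, read 0.055 and 0.056 at 3 weeks, 0.07 and 0.073 at 5 weeks and 0.118 and 0.118 at 9 weeks, a change of 1.09 (standard error 0.11, adjusted p = 5.97e-05). After quantile normalisation it was 0.41 (adjusted p = 0.03).

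Of the oxidative stress genes 4 of 11 probe-sets rose (3.57% of all probe-sets) and none fell, with 3 of the rises on the 1 gene Prx1. Prx1, a peroxiredoxin that removes peroxides, read 0.199 and 0.174 at 3 weeks, 0.169 and 0.211 at 5 weeks and 0.368 and 0.328 at 9 weeks on one of its 4 probe-sets. The 9-week arrays lay above the others, which overlapped. Its change was 0.90 (standard error 0.14, adjusted p = 0.00136), with 0.94 and 0.65 log2 on 2 further probe-sets that passed, the second of which was lost without the first array of either week (adjusted p 0.038 to 0.06 over the 4 arrays). GSTZ1, a glutathione transferase, passed on only one of its probe-sets. That probe-set read 0.187 and 0.215 at 3 weeks, 0.184 and 0.196 at 5 weeks and 0.357 and 0.375 at 9 weeks, a change of 0.87 (standard error 0.13, adjusted p = 0.00121). After quantile normalisation these changes were 0.48 (adjusted p = 0.028), 0.41 (adjusted p = 0.06), 0.24 (adjusted p = 0.23) and 0.46 (adjusted p = 0.023) in the same order, so that 2 of the 11 still passed. CAT1, a catalase, did not pass, with 0.41 (standard error 0.12, adjusted p = 0.0506) on one of its 2 probe-sets and 0.27 log2 on the other.

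The list of 48 leaf-marker probe-sets, partly drawn from earlier results on these arrays, holds all 36 photosynthesis probe-sets and those of GSTZ1 and CAT1, so it is no separate measurement. In crown 10 of the 48 rose (3.57% of all probe-sets) and 1 fell (7.43%). The rises were the 7 of photosynthesis, one GSTZ1 probe-set, LOC542855 and LOC100125679. The summed level of the 48 was 27.1 and 27.5 at 3 weeks, 27.1 and 27.3 at 5 weeks, and 29.3 and 29.8 at 9 weeks. That sum adds ratios to different medians, so the probe-sets with the largest ratios weigh most in it. PRK read 0.01 and 0.01 at 3 weeks, 0.01 and 0.011 at 5 weeks and 0.014 and 0.018 at 9 weeks, or 0.552% of its leaf level at 9 weeks, and 2 of the 4 probe-sets of LOC732707 lay at the lowest value on all 6 crown arrays. Other leaf markers rose much further, LOC542855 to 5.81% and LOC100125679 to 8.08% of the leaf level at 9 weeks, while LOC542947 fell. The share of the leaf level thus differed widely between markers of the same sample, and the part of leaf tissue in these rises was not tested. After quantile normalisation 7 of the 48 rose and 5 fell.

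Of 19 probe-sets for chromatin and cell division 2 fell, on H2A-9 and TUBA, and none rose, with a median of -0.19 log2. That is near the 7.43% of all probe-sets that fell, and after quantile normalisation 3 of the list rose and 2 fell. The 16 probe-sets of the dividing-cell markers, all histones, had 2 falls (7.43% of all probe-sets), no rise (3.57%) and a median of -0.36. One fall was on a single probe-set of wcH2B-8, -0.63 (standard error 0.14, adjusted p = 0.0106), which became -0.08 (adjusted p = 0.76) after quantile normalisation, and the other on H2A-9. Under that normalisation 2 of the 16 rose and 1 fell. The summed level of the 16 was 355 and 335 at 3 weeks, 299 and 318 at 5 weeks, and 283 and 287 at 9 weeks. This sum adds ratios to different medians, so the probe-sets with the largest ratios weigh most in it. TUBA, an alpha-tubulin of the cytoskeleton, read 2.249 and 2.701 at 3 weeks, 1.72 and 1.88 at 5 weeks and 0.813 and 0.934 at 9 weeks, a change of -1.50 (standard error 0.18, adjusted p = 0.000202), while its other probe-set changed by 0.07 (standard error 0.12, adjusted p = 0.773). The largest histone change was on an H2A-9 probe-set, -0.99 (standard error 0.23, adjusted p = 0.0154), with 12.08 and 12.56 at 3 weeks, 10.02 and 11.11 at 5 weeks and 6.318 and 6.073 at 9 weeks. wcH2B-6, outside the lists and picked out after its values were seen, changed by -0.90 and -0.84 log2 on 2 probe-sets. The calls on H2A-9 and on both wcH2B-6 probe-sets were lost in every leave-out, at an adjusted p of 0.078 to 0.12 for H2A-9 and 0.061 to 0.11 for the stronger of the wcH2B-6 pair. The wcH2B-8 call was lost in 3 of the 4 leave-outs, with an adjusted p of 0.042 to 0.12 over all 4. After quantile normalisation H2A-9 changed by -0.41 (adjusted p = 0.29) and the wcH2B-6 pair by -0.42 (adjusted p = 0.11) and -0.35 (adjusted p = 0.14). XTH, a xyloglucan endotransglycosylase that loosens and rebuilds cell walls, read 2.193 and 2.345 at 3 weeks, 2.046 and 2.262 at 5 weeks and 1.2 and 1.039 at 9 weeks, a change of -1.02 (standard error 0.16, adjusted p = 0.00127). In leaf it changed by -0.85 log2.

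Few members of the remaining lists passed, where 3.57% of all probe-sets rose and 7.43% fell at any fold. Among 8 defence probe-sets PR5, a thaumatin-like protein, rose by 0.84 (adjusted p = 0.0213, and 0.066 to 0.16 with 1 array left out) after a lower level at 5 weeks (0.188 and 0.227 at 3 weeks, 0.124 and 0.146 at 5 weeks and 0.381 and 0.357 at 9 weeks). In leaf PR5 rose by 3.46 log2. Glc1, on the same list, changed by -0.59 (standard error 0.15, adjusted p = 0.0236), and 1 of 11 seed storage probe-sets, a gliadin, by 0.65 (standard error 0.19, adjusted p = 0.0442), both lost in every leave-out (adjusted p 0.062 to 0.22 and 0.14 to 0.25). After quantile normalisation PR5 changed by 0.43 (adjusted p = 0.18) and Glc1 by -1.07 (adjusted p = 0.00066). Of 6 translation probe-sets 1 rose and 1 fell, both lost in every leave-out, and none of 4 transport, 2 starch or 1 heat shock probe-sets passed. WZF1, a zinc finger protein outside the lists and also picked out after its values were seen, read 0.289 and 0.395 at 3 weeks, 0.474 and 0.398 at 5 weeks and 1.065 and 0.752 at 9 weeks, a change of 1.41 (standard error 0.24, adjusted p = 0.00269).

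**Figure D3:**
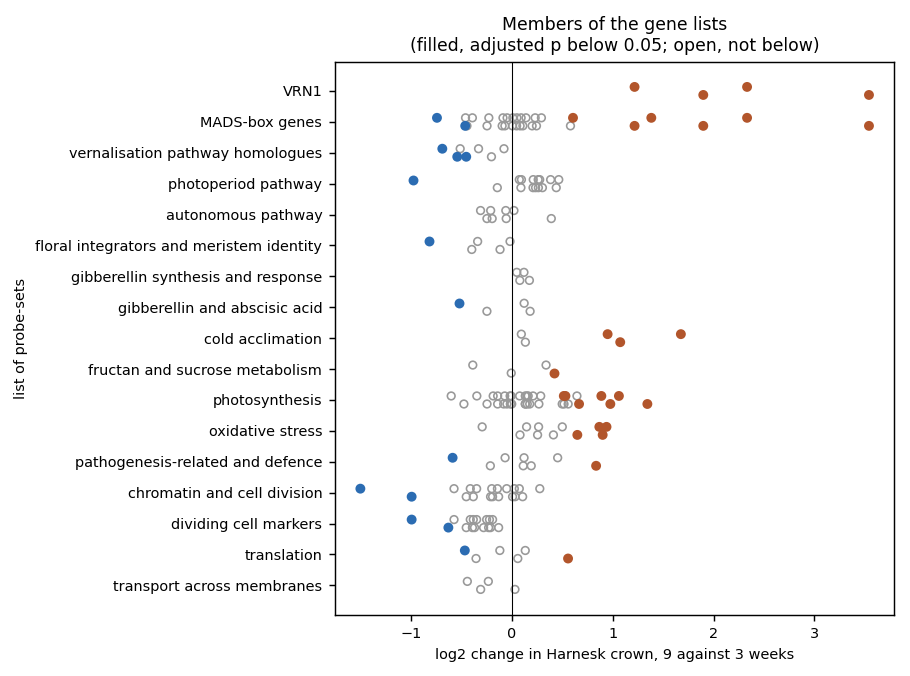
Log2 change from 3 to 9 weeks in Harnesk crown of each probe-set on 17 gene lists, filled where the adjusted p was below 0.05 (orange for rises, blue for falls) and open where it was not. The TaVRN1 probe-sets, which also count among the MADS-box genes, lie between 1.22 and 3.54, and TUBA at -1.50 is the lowest point drawn. PRK, among the photosynthesis genes, starts from the lowest value of the table, so its point is a lower bound.

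The largest rises belonged to genes that the annotation names by number only. Among the 1273 annotated probe-sets 55 rose and 41 fell at least 2-fold (0.892% and 1.37% of all probe-sets). LOC542946 stood at 0.01 and 0.01 at 3 weeks, 0.013 and 0.01 at 5 weeks and 0.691 and 0.694 at 9 weeks. The first 4 arrays were at or next to the lowest value of the table, so the rise is at least 69.25-fold (adjusted p = 2.5e-10). LOC100125679 lay at the lowest value on all 4 arrays of 3 and 5 weeks and at 0.329 and 0.305 at 9 weeks, at least 31.7-fold higher. LOC542855 did the same, at 0.294 and 0.247 by 9 weeks, at least 27.05-fold higher. In leaf these 3 stood far above crown throughout, with 3-week means of 1.83, 2.58 and 3.45, where they changed by 0.35, 0.60 and 0.43 log2.

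LOC543251 read 0.079 and 0.064 at 3 weeks, 0.091 and 0.097 at 5 weeks and 3.974 and 4.474 at 9 weeks, a change of 5.89 (standard error 0.18, adjusted p = 1.55e-09). All of the first 4 arrays were below 0.1, and leaf rose by 5.19 log2. LOC543252 read 0.114 and 0.067 at 3 weeks, 0.091 and 0.12 at 5 weeks and 2.424 and 2.034 at 9 weeks, a change of 4.67 (standard error 0.23, adjusted p = 8.25e-08), LOC542792 changed by 4.10 (standard error 0.14, adjusted p = 3.27e-09), and LOC100037562 by 3.83 (standard error 0.12, adjusted p = 2.58e-09). Only LOC542792 of these 4 had moved by 5 weeks at an adjusted p below 0.05, by 0.76 (adjusted p = 0.0257), and it rose by 3.33 (adjusted p = 3.66e-08) after.

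LOC543256 and LOC542908, also among the 15 leading genes, likewise climbed in both intervals. LOC543256 read 0.016 and 0.019 at 3 weeks, 0.074 and 0.08 at 5 weeks and 0.205 and 0.201 at 9 weeks, with no overlap between weeks. It had risen by 2.14 (adjusted p = 7.76e-06) at 5 weeks and rose by 1.40 (adjusted p = 3.03e-05) after, and leaf changed by -0.20 log2. LOC542908 read 8.075 and 8.858 at 3 weeks, 20.18 and 23.76 at 5 weeks and 54.93 and 56.27 at 9 weeks. It too separated at each week, with steps of 1.37 (adjusted p = 0.00573) and 1.34 (adjusted p = 0.00133). Its leaf means were 0.151 at 3 weeks and 0.099 at 9 weeks, far below those of crown. A second LOC542908 probe-set changed by -0.17 and the last by -0.73 log2, so the gene's 3 probe-sets disagreed. The other 6 leading genes, LOC542799, LOC543472, LOC542888, LOC100049041, LOC778392 and LOC543255, rose by 3.08, 2.98, 2.92, 2.82, 2.69 and 2.53 log2, each with less than 0.5 log2 by 5 weeks. Of the LOC778392 probe-sets 1 rose and the other 2 did not pass (0.39 and 0.18 log2).

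The falls were smaller. LOC606359 had the largest, with 41.54 and 43.81 at 3 weeks, 41.03 and 41.1 at 5 weeks and 7.167 and 4.69 at 9 weeks on the strongest of its 3 probe-sets. The 3- and 5-week arrays were alike and the 9-week arrays far below. Its change was -2.88 (standard error 0.19, adjusted p = 1.33e-06), with -2.79 and -2.73 log2 on the other 2, and nothing had moved by 5 weeks (-0.06 log2). LOC543147 read 5.494 and 5.785 at 3 weeks, 6.698 and 6.957 at 5 weeks and 0.907 and 1.001 at 9 weeks, a change of -2.56 (standard error 0.17, adjusted p = 1.05e-06). LOC542806, LOC543137 and LOC543144 shared its course, with 5-week means above those of 3 weeks and changes of -2.12, -1.84 and -1.39 log2 by week 9. LOC543409 read 11.49 and 12.95 at 3 weeks, 8.289 and 7.147 at 5 weeks and 2.201 and 2.349 at 9 weeks, a change of -2.42 (standard error 0.25, adjusted p = 6.06e-05), of which -0.66 (adjusted p = 0.797) by 5 weeks did not pass. LOC780660 changed by -2.08 on one probe-set and by -1.99 on another, while the last changed by -0.13 log2. The remaining falls were LOC542846 (-2.19), LOC543338 (-2.07), LOC780658 (-1.92), LOC100037556 on 4 probe-sets (-1.57 to -1.16), TUBA, the beta-glucosidase GLU1A (-1.44, with -3.95 in leaf), LOC543196 (-1.37) and LOC542947 (-1.36).

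The probe-sets that fell most have no gene symbol. One pair reads the same transcript cluster. The first of the pair read 39.98 and 42.2 at 3 weeks, 16.32 and 18.18 at 5 weeks and 0.979 and 0.952 at 9 weeks, a change of -5.41 (standard error 0.13, adjusted p = 2.5e-10), and the second changed by -5.35 log2. By 5 weeks the first had changed by -1.25 (adjusted p = 0.000374), and by 9 weeks it was close to the leaf mean of 0.699. The largest rise without a symbol read 0.827 and 0.831 at 3 weeks, 1.286 and 1.217 at 5 weeks and 30.07 and 32.37 at 9 weeks, a change of 5.23 (standard error 0.29, adjusted p = 2e-07), where leaf changed by 0.53 log2. The next read 0.687 and 0.755 at 3 weeks, 0.818 and 0.768 at 5 weeks and 24.09 and 25.91 at 9 weeks, a change of 5.12 (standard error 0.14, adjusted p = 6.35e-10), where leaf changed by 6.94 log2.

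**Figure D4:**
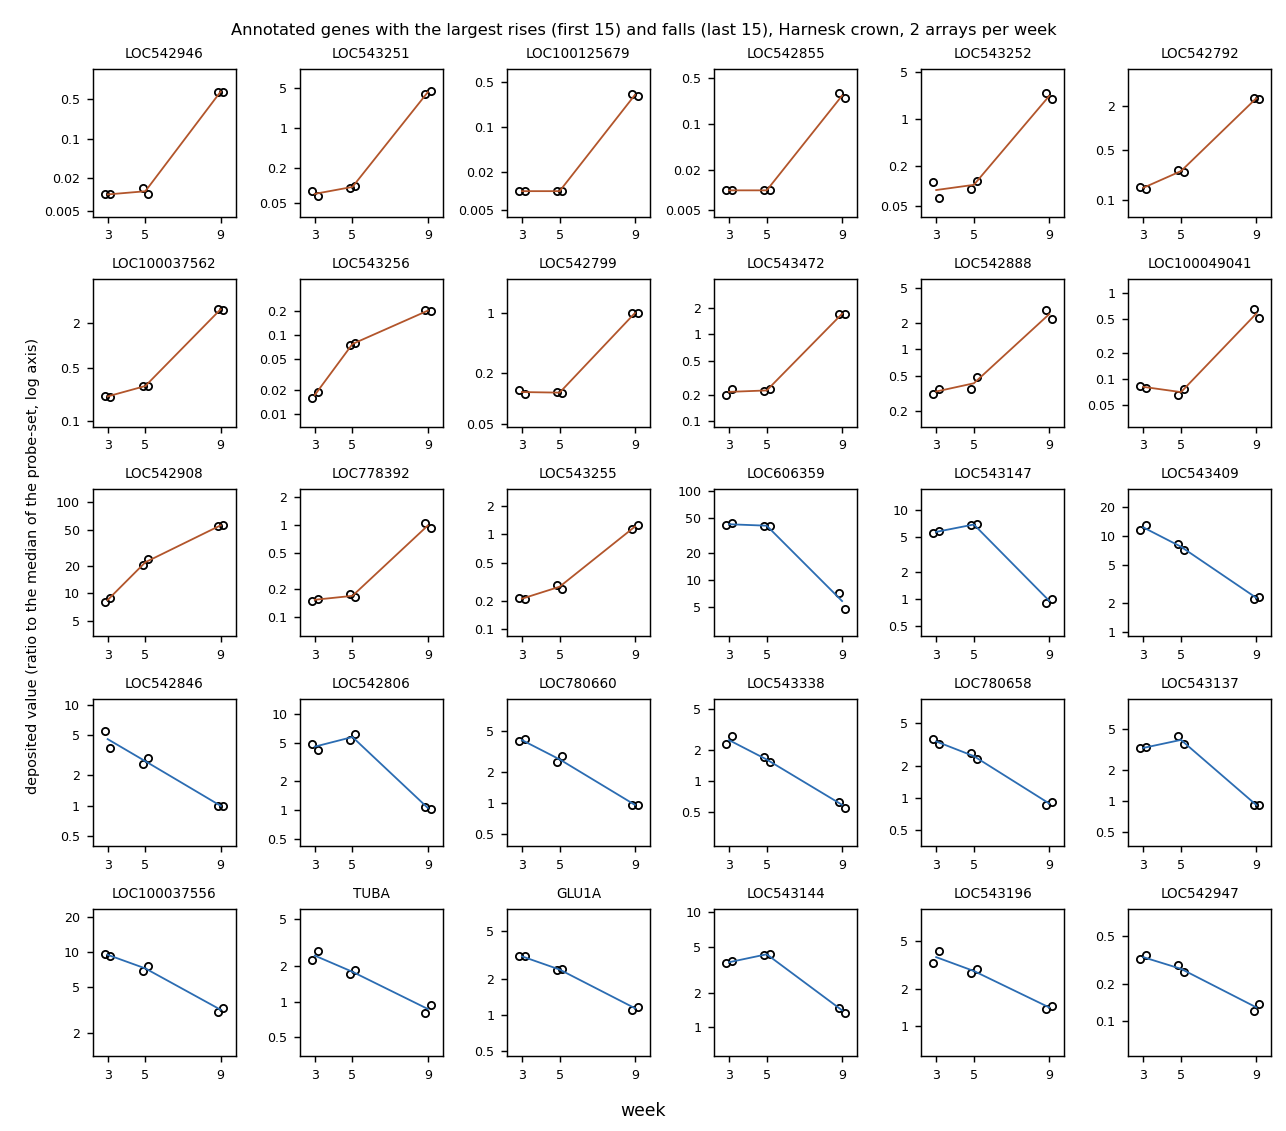
Deposited value (ratio, log axis) against week for the annotated genes with the 15 largest rises and then the 15 largest falls from 3 to 9 weeks in Harnesk crown, 1 probe-set per gene, with a circle for each of the 2 arrays of a week and a line through their geometric means (orange for rises, blue for falls). Most risers are flat to week 5, while LOC542792, LOC543256 and LOC542908 climb in both intervals.

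The crown changes were set against those of leaf in the same model. Over all probe-sets the difference passed at any fold for 30.2%. Of the 546 rises in crown 234 were called in leaf in the same direction (6.11% of all probe-sets) and 16 in the opposite one, and 417 differed between tissues. Of the 837 falls 97 were called alike in leaf (1.94% of all probe-sets) and 28 opposite, and 645 differed. Both sets were chosen for their change in crown, so these counts describe them and test nothing. Several of the 15 leading genes rose at least 2-fold in both tissues on their leading probe-sets. In leaf LOC543252, LOC542792, LOC100037562, LOC542799, LOC100049041 and LOC778392 rose by 2.69, 2.01, 2.52, 2.35, 1.89 and 3.97 log2. For each of these leaf minus crown passed. LOC542888 and LOC543251 rose in both tissues too, but their difference did not pass. Leaf minus crown was 0.25 (adjusted p = 0.761) for the first and -0.70 (adjusted p = 0.0507) for the second. A further LOC542888 probe-set rose by 1.22 log2 in crown (adjusted p = 0.00449) but changed by -0.12 in leaf (adjusted p = 0.722). Its leaf minus crown was -1.34 (adjusted p = 0.00811), so the gene's probe-sets disagreed. For LOC543472 the change in leaf was 0.22 log2 and leaf minus crown -2.76 (adjusted p = 1.32e-06). LOC543338 and LOC543196 went opposite ways, up in leaf by 0.81 and 0.73 log2. For TaVRN1 the 4 probe-sets changed less in leaf, by 1.57, 0.06, 0.79 and 0.26 log2, and the difference passed for 3 of them. TaAGL42 rose in both (1.81 in leaf), with a difference of 0.43 (adjusted p = 0.131).

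**Figure D5:**
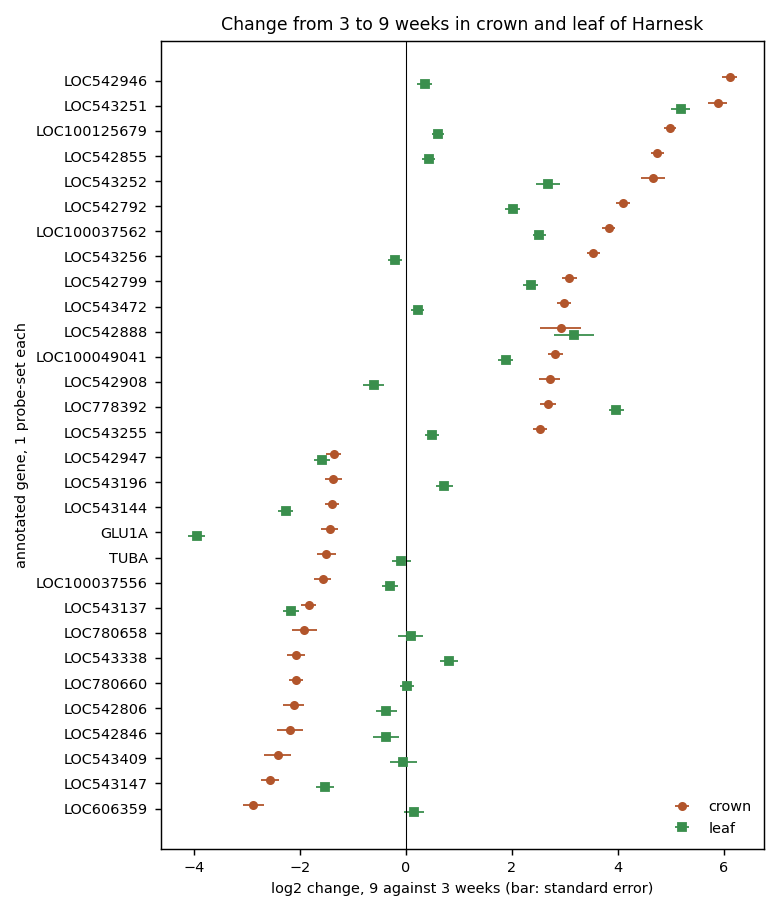
Log2 change from 3 to 9 weeks, with its standard error as a bar, in crown (orange circles) and leaf (green squares) of Harnesk for the annotated genes with the 15 largest rises and 15 largest falls in crown. LOC543251 and LOC542888 lie close together in both tissues, while LOC606359, LOC543409 and LOC780660 fell in crown and lie near 0 in leaf. A further LOC542888 probe-set, not drawn, rose in crown but not in leaf. LOC542946, LOC100125679 and LOC542855 start from the lowest value of the table, so their crown points are lower bounds.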

How the data were processed

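Total RNA of crown and leaf was hybridised to Affymetrix Wheat Genome Arrays. The authors normalised each array by RMA in GeneSpring GX 7.3 and divided each probe-set by its median, so each deposited value is a ratio, not logged, with a floor of 0.01. They were taken to log2 here. limma 3.58.1 in R 4.3.3 (lmFit and eBayes) fitted 6 condition means to the 12 Harnesk arrays, on 61179 probe-sets without the control probe-sets, with Benjamini-Hochberg adjustment over all of them. A probe-set was called at an adjusted p below 0.05 and at least 2-fold, and members of lists were counted at that p whatever the fold. Nothing says that the pools came from separate sowings, so p-values measure the spread between pools. As 2 arrays a week limit the precision, the variance prior carried 6.19 degrees of freedom beside 6 residual ones.

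The platform annotation gave 1 gene symbol to 1273 probe-sets and none to 59906. Of the annotated ones 1272 were found in the RefSeq gene table of the assembly IWGSC CS RefSeq v2.1, used for names only. Flowering-time probe-sets were named as the study lists them. Genes named were the 15 largest called rises and falls among annotated genes, the members of the flowering lists (some of those that did not pass only within the range given for their list), called members of the other lists and the 2 largest unnamed rises and falls. The groups, genes and lists were chosen with earlier results of these data known. 6 genes were left out of lists that they had matched by spelling only. Replicate numbers did not pair the arrays, since 0 of 15 correlations of deviations between same-numbered arrays exceeded 0.1. The procedure was tested on simulated data. Alternatives were quantile normalisation, median centring, a filter on the lowest value, a variance trend and other sets of arrays. Further ones were the methods' t-test, the replicate number as a block, and leaving out each array. Quantile normalisation was run over the leaf and crown arrays together.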

Additional observations from a re-analysis of the deposited data

Results flagged for a closer look

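The change from 3 to 9 weeks was compared between leaf and crown for the 91 probe-sets followed under each alternative. For 73 of them it differed by the test of that difference (limma, adjusted p below 0.05), where 30.2% of all probe-sets did so. These 73 are given as leaf minus crown in log2, with no explanation weighed. Other probe-sets of this text passed too but are not listed below. Among them are single probe-sets of ESD4 (1.19), CAT1 (-1.47) and FCA (-0.96), and that of TaAGL20, TaAGL21 and TaAGL38. Among flowering-time genes the difference was above 0 for ent-kaurene synthase (2.82), ent-kaurene oxidase (1.97), VIL3 (1.55), TaAGL7 (1.35), LHY (1.15), the second LHY probe-set (0.98), TaAGL14 and TaAGL15 (0.93), TaAGL36 (0.87), EMF2 (0.85), TaAGL13 and TaAGL19 (0.85), TFL1 (0.73) and VIL2 (0.70). It was below 0 for GI (-0.63), TaAGL10 (-0.70), CO (-0.83) and TaVRN1 (-0.96, -1.97 and -2.27).

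Among genes of the other lists and those with a known name it was above 0 for PR5 (2.62), FKBP70 (1.66), TUBA (1.41), Glc1 (1.20), wcH2B-6 (1.11 and 0.86) and eIF-2-beta (1.09). It was below 0 for 6-FEH (-0.68), a gliadin probe-set (-0.78), OEE2 (-0.93 and -1.48), PRK (-1.0), rab15 (-1.15, -1.27 and -1.46), AGA.1 (-1.26), petC (-1.29), OEE1 (-1.30), FBP (-1.47), Prx1 (-1.51, -1.61 and -1.80), Trx-M (-1.58), RPL9 (-1.72), lgul (-2.14), rbcl (-2.41) and GLU1A (-2.52).

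Among genes known by number only it was above 0 for LOC606359 (3.03), LOC543338 (2.88), LOC543409 (2.38), LOC543196 (2.10), LOC780660 (2.10), LOC780658 (2.01), LOC542846 (1.81), LOC542806 (1.75), LOC778392 (1.29), LOC100037556 (1.27) and LOC543147 (1.04). It was below 0 for LOC542799 (-0.73), LOC543144 (-0.88), LOC100049041 (-0.93), LOC100037562 (-1.31), LOC543252 (-1.98), LOC543255 (-2.04), LOC542792 (-2.08), LOC543472 (-2.76), LOC542908 (-3.32), LOC543256 (-3.75), LOC542855 (-4.32), LOC100125679 (-4.38) and LOC542946 (-5.76). LOC542855, LOC100125679, LOC542946 and PRK sat on the table's floor in the 3-week crown, so their crown rises are lower bounds and their differences lie at least this far below 0. Of the 4 probe-sets without a symbol, the pair that fell most in crown stood at 5.05 and 4.91, and those that rose most at -4.70 for the first and 1.82 for the next.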

How the results depend on the processing

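Quantile normalisation raised the probe-sets called from 3 to 9 weeks from 1383 to 2212 (936 rising, 1276 falling) and from 5 to 9 weeks from 971 to 1771 (847 rising, 924 falling). Under it the changes of both OEE2 probe-sets turned to -0.13 and -0.31 log2, and leaf minus crown turned for TaAGL32 (-0.78), for a probe-set with no symbol (-0.071) and for VIL2 (-0.10), and the cause was not tested. The methods' t-test gave 1320, 163 and 951 probe-sets for 9 against 3, 5 against 3 and 9 against 5 weeks at least 2-fold before Benjamini-Hochberg adjustment, close to limma's counts. After it, 4 remained past the threshold from 3 to 9 weeks (3 rising, 1 falling), 0 from 3 to 5 weeks (0 rising, 0 falling) and 0 from 5 to 9 weeks (0 rising, 0 falling). With 1 array left out the counts ranged from 1228 to 1427 for 9 against 3 weeks, from 110 to 132 for 5 against 3 weeks, of which 68 to 94 fell, and from 871 to 926 for 9 against 5 weeks. The lowest of the falls, 68, came without the second 3-week array. Centring gave 1470, a filter on the lowest value 1379 of 61164, and the fit to crown arrays alone 1392. With the replicate number as a block 1380, 164 and 969 were called. Same-numbered arrays did not deviate together, so this pairing rests on a shared number only.

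Of 80 probe-sets past the threshold and followed by name, 51 kept it whichever array was left out, 9 lost it in 1 to 3 leave-outs and 20 in all 4, while 60 kept it under quantile normalisation. With 2 arrays a week, small changes were detectable only where replicates lay close together.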
